A study of Drosophila melanogaster with 4 samples.

Results

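The genes described here are Pvr, the single receptor of the PDGF/VEGF family in Drosophila, and its ligands Pvf1, Pvf2 and Pvf3. They were taken by symbol from the annotation of the deposited matrices and make up 4 of the 17875 genes listed there. The data are single-cell RNA-seq (10x Genomics droplets, counting unique molecular identifiers, UMIs, at the 3′ ends of transcripts) of whole wild-type OregonR embryos, in which no gene was deleted and no agent was given. They were collected at 2 ages, stage 10-12 (germ band extension and retraction) and stage 13-16 (organ formation), with 2 biological replicate libraries each. Every library is a separate collection of many pooled embryos, broken into a cell suspension by mechanical force, so a library is the replicate in all tests and the age of single embryos is not known. The late collections are unlike in age, the first replicate being richer in older and the other in younger embryos of that range, as the study describes them. Age and replicate cannot be told apart among the late libraries. The collections of the 2 groups were made on different dates. By the study's methods their temperatures differed too. The early embryos were aged at a lower temperature than they were collected at, and the late ones stayed at room temperature. Stage, collection date and temperature cannot be told apart.

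Pvr is a transmembrane receptor tyrosine kinase related to the vertebrate receptors for platelet-derived and vascular endothelial growth factors, and the Pvf proteins are secreted growth factors of the same family. Ligand binding leads to signaling through Ras and MAP kinase, and in other settings through Rac, JNK and PI3 kinase. In the embryo the pathway is known for the survival and dispersal of plasmatocytes, the macrophage-like blood cells that leave the head and spread along the ventral nerve cord and other organs. The comparisons below set the tissues with receptor RNA against those with ligand RNA.

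On the release 6 assembly, Pvr (FBgn0032006) occupies chromosome 2L from 8220980 to 8239878 on the minus strand, with 13 annotated transcripts. Pvf2 (FBgn0031888, 2L from 7069536 to 7084635, 1 transcript) and Pvf3 (FBgn0085407, 2L from 7098188 to 7157695, 4 transcripts) lie close together on the minus strand of the same arm, 13552 bases apart, with the noncoding RNA lncRNA:CR46196 between them. Pvf1 (FBgn0030964) lies on the plus strand of chromosome X, from 18832682 to 18842901, with 3 transcripts. A noncoding RNA on the same strand inside an intron of Pvf2, lncRNA:CR44611, had at most 5 UMIs per library. Ugt307A1, which shares 11 bases with the end of Pvf2 on the opposite strand, had at most 6 UMIs per library. A noncoding RNA on the opposite strand inside an intron of Pvf3, lncRNA:CR44612, had 24 to 96 UMIs per library.

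The libraries held 20529 and 13758 barcodes at stage 10-12 and 39078 and 36217 at stage 13-16, with 71622535 to 394684653 UMIs each. Clusters of each library that looked like empty droplets (19.7% to 38.2% of barcodes) and likely doublets were left out, which kept 7758 to 23212 cells per library with a median of 2403 to 7425 UMIs. The removed droplets, with a median of 1297 to 2237 UMIs, serve below as a background level. Whether they hold free RNA alone or also poor cells was not tested. Clusters were named from marker genes that did not include the members. The study's epipharynx, which has Pvf3 among its markers, was not used as a name. Its cells can lie in clusters of another name or without a name. Named were 25 tissues at stage 10-12 and 26 at stage 13-16, 24 of them at both. In each tissue all markers or all but 1 were higher than in the other cells in both replicates. The same markers gave the names, so this is no separate check of them. The names hypopharynx and oenocytes were open only to clusters of stage 13-16, so their absence at stage 10-12 is no finding. Whether such cells were present early was not tested. The gut primordium was named only at stage 10-12, and 10.3% to 24.0% of the kept cells stayed without a name. Between libraries, 0.683% to 1.10% of the barcodes of the smaller library were also found in the other.

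Levels are given as UMIs of the gene per 1000000 UMIs of the tissue (CPM) in the order replicate 1, replicate 2. They are compared between tissues, not between the genes. A tissue was tested against the remaining kept cells of the same libraries with edgeR's quasi-likelihood test on summed counts, and log2 differences are given with their standard error (SE). They are computed after edgeR's scaling of the sums and can differ from the ratio of the CPM values. Across all genes and tissues, 9.97% of the tests at stage 10-12 were called higher and 14.1% lower at an adjusted p of 0.05. At stage 13-16 the shares were 13.3% higher and 18.1% lower. With 2 libraries per stage, edgeR takes the spread between libraries in part from other genes. A small p-value therefore does not show that the replicates of a gene lie close together.

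Pvr was highest in plasmatocytes. At stage 10-12 the level in plasmatocytes was 414 and 344 CPM (1607 and 441 UMIs in 348 and 169 cells), and at stage 13-16 it was 454 and 485 CPM (2203 and 3568 UMIs in 767 and 475 cells). No other named tissue overlapped with them at either stage. Pvr was higher there than in the remaining cells by 3.97 on the log2 scale at stage 10-12 (SE 0.17, adjusted p = 1.38e-11) and by 3.35 at stage 13-16 (SE 0.17, adjusted p = 5.94e-11). By fold, it ranked 245 and 247 among 10785 genes tested in these cells. Leaving out 1 library at a time gave 3.68 to 3.95 and 3.29 to 3.63. Plasmatocytes made up 2.14% to 3.30% of the kept cells of a library and held 21.3% to 27.2% of its Pvr UMIs.

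The share of plasmatocytes with at least 1 Pvr UMI differed widely between libraries. It was 70.4% (95% exact binomial interval 65.3 to 75.2) and 24.3% (18.0 to 31.4) at stage 10-12, at median depths of 4078 and 2071 UMIs per cell, and 34.2% (30.8 to 37.6) and 88.2% (85.0 to 91.0) at stage 13-16, at 2177 and 15269 UMIs. After each cell was thinned to 1000 UMIs the shares were 33.3% and 11.2%, then 16.3% and 37.9%. Neurons, which served as a tissue with little Pvr, had thinned shares of 1.45% and 0.394%, then 2.60% and 3.30%, at median depths between 2420 and 4412.5 UMIs. In the removed droplets (median 1297 to 2237 UMIs) the thinned share was 1.45% to 6.32%, so the share in plasmatocytes was above both in every library. Intervals here cover counting error only.

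Plasmatocytes were not uniform in Pvr. Of the clusters named so at stage 10-12, one (188 cells) had 432 and 414 CPM and another (136 cells) 462 and 582 CPM, whereas the remaining one, with a weaker marker score, had 76.8 and 24.3 CPM in 71 and 122 cells. At stage 13-16 the corresponding values were 592 and 516 CPM in the largest in UMIs (519 cells), 548 CPM in 117 cells that all came from replicate 1, and 93.3 and 170 CPM in 519 and 87 cells with the weaker score. The cells of weaker score made up 71 of 348, 122 of 169, 519 of 767 and 87 of 475 plasmatocytes, and the libraries with more of them had the lower thinned shares of cells with Pvr. The low clusters thus still lay above the removed droplets, which had 27.0 and 13.8 CPM and then 32.3 and 65.1 CPM. Without the clusters of weaker score, the log2 difference of Pvr in plasmatocytes was 3.94 at stage 10-12 and 3.83 at stage 13-16.

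**Figure D1:**
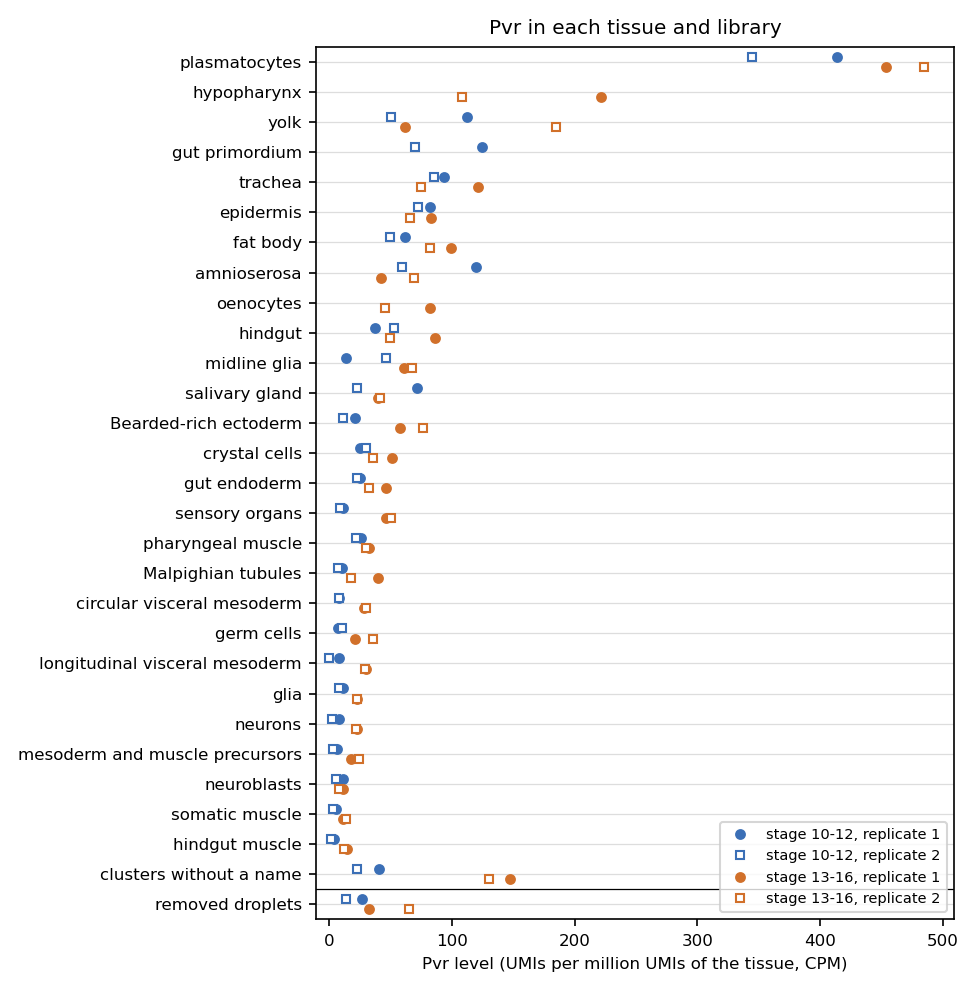
Pvr level in CPM (x axis) for each tissue (rows, ordered by level) and each library (blue stage 10-12, orange stage 13-16; filled circles replicate 1, open squares replicate 2), with the removed droplets below the line. The 4 plasmatocyte points lie between 344 and 485 CPM, above every other tissue, and most tissues lie near or under the removed droplets.

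Outside the blood cells, Pvr was found at lower levels in some epithelia and in the fat body. Among other epithelia, it was called lower in Malpighian tubules and gut endoderm at both stages and in Bearded-rich ectoderm early. Hindgut and salivary gland were not called for Pvr at either stage. In the trachea, the branched airway epithelium, Pvr was 93.7 and 85.3 CPM at stage 10-12 and 121 and 74.8 CPM at stage 13-16. In the epidermis it was 82.0 and 72.7 CPM and then 83.1 and 65.9 CPM. Both tissues were called higher than the remaining cells at both stages, the trachea by 1.42 (SE 0.16) and 0.72 (SE 0.15) and the epidermis by 1.43 (SE 0.13) and 0.50 (SE 0.13). The late call in the epidermis was lost without stage 10-12 replicate 2 (0.37) or stage 13-16 replicate 2 (0.42), and also without doublet removal (0.27). At stage 13-16 the epidermal level was close to that of the removed droplets of replicate 2. In one early epidermal cluster of 1192 cells led by a noncoding RNA, Pvr was 188 and 165 CPM, and without it the early difference was 1.14.

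The fat body, the organ of nutrient storage, had 62.0 and 49.5 CPM of Pvr at stage 10-12 and 99.3 and 82.1 CPM at stage 13-16, with differences of 0.69 (SE 0.15) and 0.89 (SE 0.14). The early call was lost without stage 10-12 replicate 1 (0.55). The summed level of 10 plasmatocyte markers was 966 to 1840 CPM in the fat body, against 7585 to 21261 CPM in plasmatocytes and 94 to 342 CPM in the epidermis, and the part of plasmatocyte RNA in the fat body value was not tested. In the gut primordium, named at stage 10-12 only, Pvr was 125 and 69.9 CPM (log2 difference 1.56, SE 0.22). In the hypopharynx, a mouthpart epithelium whose name was open to stage 13-16 clusters only, it was 222 and 109 CPM (1.32, SE 0.24). Cells of this name made up 3.77% and 7.97% of the kept cells of the late libraries but held 2.14% and 1.82% of their UMIs. Its markers nahoda and Wdr62 were also leading genes of an early epidermal cluster at a coarser clustering. The share of epidermal cells under this name was not tested.

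Amnioserosa, the extraembryonic epithelium that covers the dorsal side, had 120 and 59.5 CPM of Pvr at stage 10-12 and was called higher (1.32, SE 0.22). At stage 13-16 it had 42.6 and 69.1 CPM and was not called. The yolk was spread widely, from 50.3 to 112 CPM early and from 62.0 to 185 CPM late. Its early call (0.93, SE 0.34) was lost without replicate 1 (0.68) or replicate 2 (1.12) of stage 10-12, and its late difference of 0.78 missed the threshold (adjusted p = 0.081). The tissues after plasmatocytes overlapped with their neighbours in the order of levels. Of 24 neighbouring pairs at stage 10-12 and 25 at stage 13-16, 3 and 3 did not overlap.

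Crystal cells, the other embryonic blood cell type, had 24.9 and 30.4 CPM of Pvr early and 51.1 and 35.7 CPM late, and were not called. Muscle and nervous tissue had little. Somatic muscle had 5.68 and 3.20 CPM and then 11.1 and 14.0 CPM, hindgut muscle 4.03 and 1.72 CPM and then 14.8 and 12.1 CPM, and neurons 8.48 and 2.39 CPM and then 22.6 and 22.3 CPM, all under the removed droplets of the same library. Pvr was called higher in 7 of 25 tissues and lower in 13 at stage 10-12, and higher in 5 of 26 and lower in 13 at stage 13-16. Epidermis, fat body, plasmatocytes and trachea were called higher at both stages. Both replicates lay above the removed droplets of both libraries of their stage in 8 tissues early and in 5 late.

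**Figure D2:**
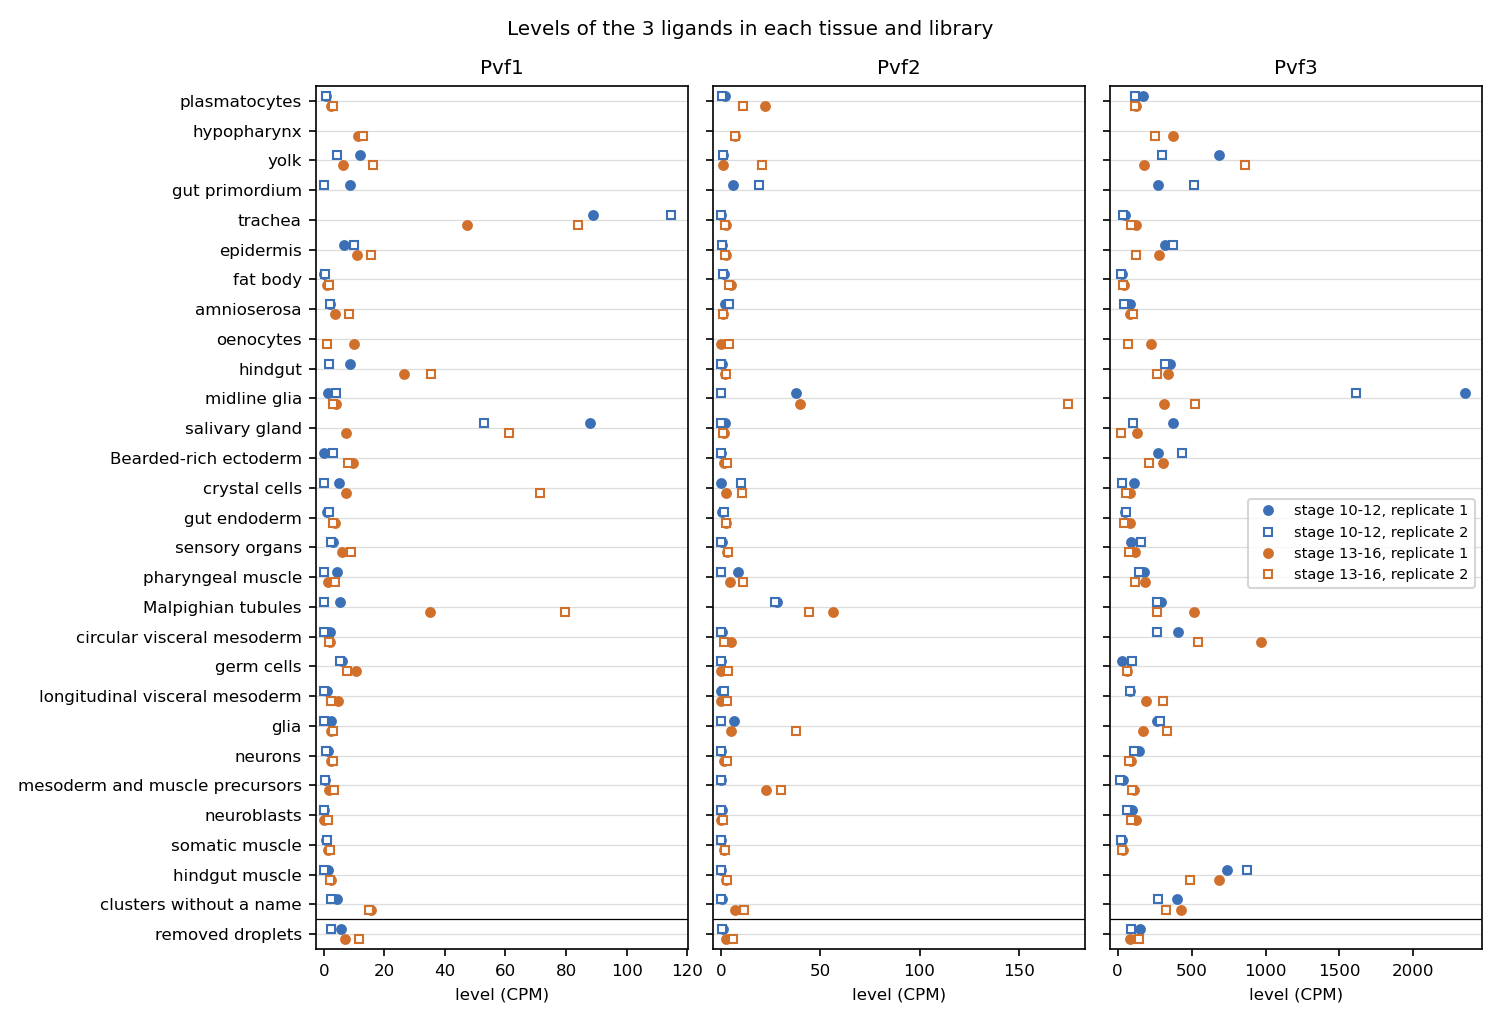
Levels of Pvf1, Pvf2 and Pvf3 in CPM (x axes, a different range for each gene) for each tissue (rows, in the order of Pvr) and library (symbols as for Pvr), with the removed droplets below the line. Pvf1 stands out in trachea and salivary gland, Pvf2 in midline glia and Malpighian tubules, and Pvf3 in early midline glia at 2347 and 1614 CPM.

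Among the ligands, Pvf1 had its highest level in the trachea at both stages. There it was 88.8 and 115 CPM at stage 10-12 (310 and 133 UMIs) and 47.3 and 84.0 CPM at stage 13-16 (117 and 1113 UMIs), against 2.48 to 11.5 CPM in the removed droplets. It was higher in the trachea than in the remaining cells by 5.19 (SE 0.21) and 3.27 (SE 0.19). Tracheal cells held 42.6% and 46.7% of all Pvf1 UMIs of the kept cells early, and 13.4% and 30.6% late, while making up 1.84% to 2.77% of the cells. At least 1 Pvf1 UMI was seen in 11.1% to 51.0% of tracheal cells, and in 0.592% to 4.42% of plasmatocytes, used as the tissue with little Pvf1, at median depths of 2539 to 13920 and 2071 to 15269 UMIs.

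The salivary gland had 87.9 and 53.0 CPM of Pvf1 at stage 10-12 (80 and 21 UMIs), a difference of 4.05 (SE 0.43). At stage 13-16 the replicates fell apart, with 7.42 CPM (5 UMIs) in replicate 1 and 61.1 CPM (139 UMIs) in replicate 2. The late call (2.13, SE 0.45) was lost without replicate 2 (0.24). Crystal cells showed the same split late, 7.48 and 71.3 CPM, and their call (2.22, SE 0.60) was also lost without stage 13-16 replicate 2 (0.42). The trachea markers summed to 861 and 1619 CPM in late crystal cells and to 721 and 320 CPM in the late salivary gland, against 8186 and 17649 CPM in the late trachea, and their part in these values was not tested.

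In Malpighian tubules and hindgut, Pvf1 was called higher than in the remaining cells only at the later stage. The Malpighian tubules, the excretory organ of the fly, had 7 UMIs (5.37 CPM) and 0 UMIs of Pvf1 in the 2 libraries of stage 10-12, where 0 UMIs allow up to 3.55 CPM. At stage 13-16 they had 34.9 and 79.6 CPM (34 and 513 UMIs), higher than the remaining cells by 2.54 (SE 0.33). The hindgut had 8.56 and 1.65 CPM early (29 and 1 UMIs), which was not called, and 26.4 and 35.4 CPM late (1.63, SE 0.28). In edgeR's test of the tissue difference between the stages, the hindgut was not called (1.36, SE 0.48, adjusted p = 0.069). The trachea markers summed to 160 to 814 CPM in these tissues late.

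The epidermis had 6.55 and 10.1 CPM of Pvf1 and then 10.9 and 15.6 CPM, against 5.60 and 2.48 CPM and then 6.95 and 11.5 CPM in the removed droplets. Its differences were 0.84 (SE 0.25) and 0.85 (SE 0.23), and the early one was lost without stage 10-12 replicate 2 (0.44). Plasmatocytes, which carry the receptor, had 0.77 and 0.78 CPM of Pvf1 and then 2.47 and 3.12 CPM (3, 1, 12 and 23 UMIs). They were lower than the remaining cells by 2.57 and 1.60 (log2 differences of -2.57, SE 0.58, and -1.60, SE 0.33). These calls were lost without stage 10-12 replicate 1 (adjusted p = 0.069) and without stage 13-16 replicate 2 (-1.13). In all, Pvf1 was higher in 3 and lower in 10 of 25 tissues early, and higher in 6 and lower in 12 of 26 late.

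Pvf2 was sparse, with 1.18 and 1.02 CPM over all kept cells at stage 10-12 and 5.06 and 6.85 CPM at stage 13-16. The Malpighian tubules were a source in all 4 libraries. They had 28.4 and 27.3 CPM early (37 and 23 UMIs) and 56.5 and 44.4 CPM late (55 and 286 UMIs), so the replicates lay close together at each stage. Removed droplets had 1.28 and 0.87 CPM and then 2.67 and 6.35 CPM. The log2 differences were 5.16 (SE 0.43) and 3.18 (SE 0.35), and these cells held 24.8% and 38.3% of the Pvf2 UMIs early and 8.97% and 15.1% late.

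Midline glia, the glia that wrap the commissures of the ventral nerve cord, had 38.1 CPM of Pvf2 (27 UMIs in 80 cells) in stage 10-12 replicate 1 and 0 UMIs in 59 cells of replicate 2, which allows up to 12.6 CPM. The early call (4.67, SE 0.54) therefore rests on 1 library. At stage 13-16 they had 40.0 and 175 CPM (19 and 180 UMIs in 173 and 102 cells), with a difference of 4.19 (SE 0.38) that was 3.26 without replicate 2 and 4.94 without replicate 1. The other glia had 6.79 CPM and 0 UMIs early and 5.09 and 37.7 CPM late. Their calls (1.99 and 1.81) rested on 1 library at each stage, being lost without stage 10-12 replicate 1, when no UMI remained, and without stage 13-16 replicate 2 (0.23).

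The cells named mesoderm and muscle precursors had different Pvf2 levels at the 2 stages and, at the clustering used, also different leading genes. The early clusters were led by genes such as jeb, kirre and nau. The late one was led by Him, twi, loh, prc and tin, of which prc and tin are also known from the heart. At a coarser clustering Him, twi, tin and nau were among the leading genes at both stages. Stage and kind of cell cannot be told apart in this tissue for any of the 4 genes. The cells of this name had 4 Pvf2 UMIs in 1018 cells and 1 UMI in 350 cells at stage 10-12 (0.30 and 0.16 CPM). At stage 13-16 they had 55 and 208 UMIs in 253 and 471 cells (22.7 and 30.2 CPM). Against the remaining cells the early difference was -2.08 (SE 0.49), called lower, and the late one 2.26 (SE 0.23), called higher. The early call was lost without either library of that stage (-2.78 and -1.87). Midline glia markers summed to 149 and 195 CPM and Malpighian tubule markers to 461 and 320 CPM in these late cells, and their part in the value was not tested.

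Late plasmatocytes also had Pvf2, at 22.0 and 11.4 CPM after 2.06 and 0.78 CPM early. The late difference was 1.84 (SE 0.36), and 1.09 and 2.79 without replicate 1 and replicate 2 of that stage. Of the 107 UMIs of replicate 1, 97 were in the cluster that came from that library alone, where Pvf2 was 29.1 CPM. Without this cluster the difference was 1.19 and was not called (adjusted p = 0.057). The gut primordium had 5 UMIs in each early library (6.24 and 19.4 CPM, difference 3.41, SE 0.88). The trachea had 0 UMIs in both early libraries, which allows up to 0.860 and 2.58 CPM. Pvf2 was higher in 4 and lower in 4 of 25 tissues early, and higher in 5 and lower in 7 of 26 late. Somatic muscle, used as the tissue with little Pvf2, had at least 1 UMI in 0.288% to 1.57% of cells at median depths of 2134 to 11240 UMIs. The Malpighian tubules had one in 13.6% to 36.0% of cells at 2563.5 to 21022.5 UMIs.

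Pvf3 had many sources. Midline glia at stage 10-12 had the highest level of any named tissue, 2347 and 1614 CPM (1665 and 385 UMIs). The study's epipharynx was not among the names. At stage 13-16 they had 311 and 526 CPM, below both early libraries. The differences from the remaining cells were 3.64 (SE 0.30) and 1.45 (SE 0.28), the late one 2.12 without stage 13-16 replicate 1. At least 1 Pvf3 UMI was found in 87.5% and 47.5% of early and 38.7% and 55.9% of late midline glia, at median depths of 2373 to 5817 UMIs. Somatic muscle, used as the tissue with little Pvf3, had 13.7% to 22.7% at 2134 to 11240 UMIs, and the removed droplets 9.003% to 22.6%. Midline glia held 4.12% to 6.84% of early Pvf3 UMIs, and the epidermis 25.4% and 29.9%.

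Of the visceral muscles, hindgut muscle and circular visceral mesoderm had Pvf3 above the remaining cells at both stages. Hindgut muscle had 738 and 875 CPM at stage 10-12 and 682 and 486 CPM at stage 13-16 (differences 2.27, SE 0.12, and 1.81, SE 0.12). Circular visceral mesoderm, which forms the ring muscle of the midgut, had 406 and 263 CPM and then 971 and 543 CPM (1.07, SE 0.14, and 2.30, SE 0.14). Longitudinal visceral mesoderm was lower than the remaining cells early, at 82.8 and 86.2 CPM (-1.11, SE 0.19), and higher late, at 194 and 309 CPM (0.96, SE 0.17). Without stage 13-16 replicate 2 the late call was lost (0.26), and with each library clustered alone the late value was -0.26. Somatic muscle, by contrast, had 30.3 and 25.3 CPM and then 34.4 and 29.97 CPM and was lower at both stages (-2.65 and -1.98).

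Several epithelia were called higher in Pvf3 than the remaining cells at both stages. The epidermis had 322 and 373 CPM and then 276 and 127 CPM (1.36, SE 0.14, and 0.58, SE 0.14). The late call was lost without stage 13-16 replicate 1 (0.29). In stage 13-16 replicate 2 the epidermal level of 127 CPM lay under the 136 CPM of the remaining cells. The hindgut had 354 and 318 CPM and then 339 and 266 CPM (0.93 and 0.84), the Malpighian tubules 296 and 267 CPM and then 514 and 265 CPM (0.68 and 1.14), and ectoderm rich in Bearded-family RNA 275 and 438 CPM and then 305 and 213 CPM (1.08 and 0.85). The early call was lost in the Malpighian tubules without replicate 1 (0.75) or replicate 2 (0.63) of stage 10-12, and in the Bearded-rich ectoderm without stage 10-12 replicate 2 (0.62). The hypopharynx at stage 13-16 had 377 and 255 CPM (1.05), a call that was lost without doublet removal (0.41) and at a coarser clustering (0.35). The yolk was again uneven, from 303 to 682 CPM early and from 181 to 864 CPM late, and its calls (1.33 and 1.401) were lost without either early library (0.90 and 1.71) and without stage 13-16 replicate 2 (0.11).

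The glia outside the midline had 268 and 290 CPM and then 173 and 331 CPM of Pvf3 (0.66 and 0.70), and neither call held when libraries were left out. The early one was lost without replicate 1 (0.82) or replicate 2 (0.46) of stage 10-12, the late one without either of these (0.68 and 0.58) and without stage 13-16 replicate 2 (-0.0037). Low levels were found in the trachea (51.3 and 37.9 CPM, then 125 and 88.8 CPM) and in the fat body (27.1 and 21.1 CPM, then 43.1 and 39.1 CPM), which were lower at both stages. Plasmatocytes had 168 and 116 CPM early and 124 and 116 CPM late. Their differences of -0.07 (SE 0.17) and -0.18 (SE 0.17) were not called, although the early one was -0.63 and called lower (adjusted p = 0.0496) without stage 10-12 replicate 1. Their levels lay near those of the removed droplets (150 and 93.4 CPM, then 82.9 and 144 CPM). In all, Pvf3 was higher in 10 and lower in 12 of 25 tissues early, and higher in 11 and lower in 10 of 26 late. Of these, 9 were higher at both stages.

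**Figure D3:**
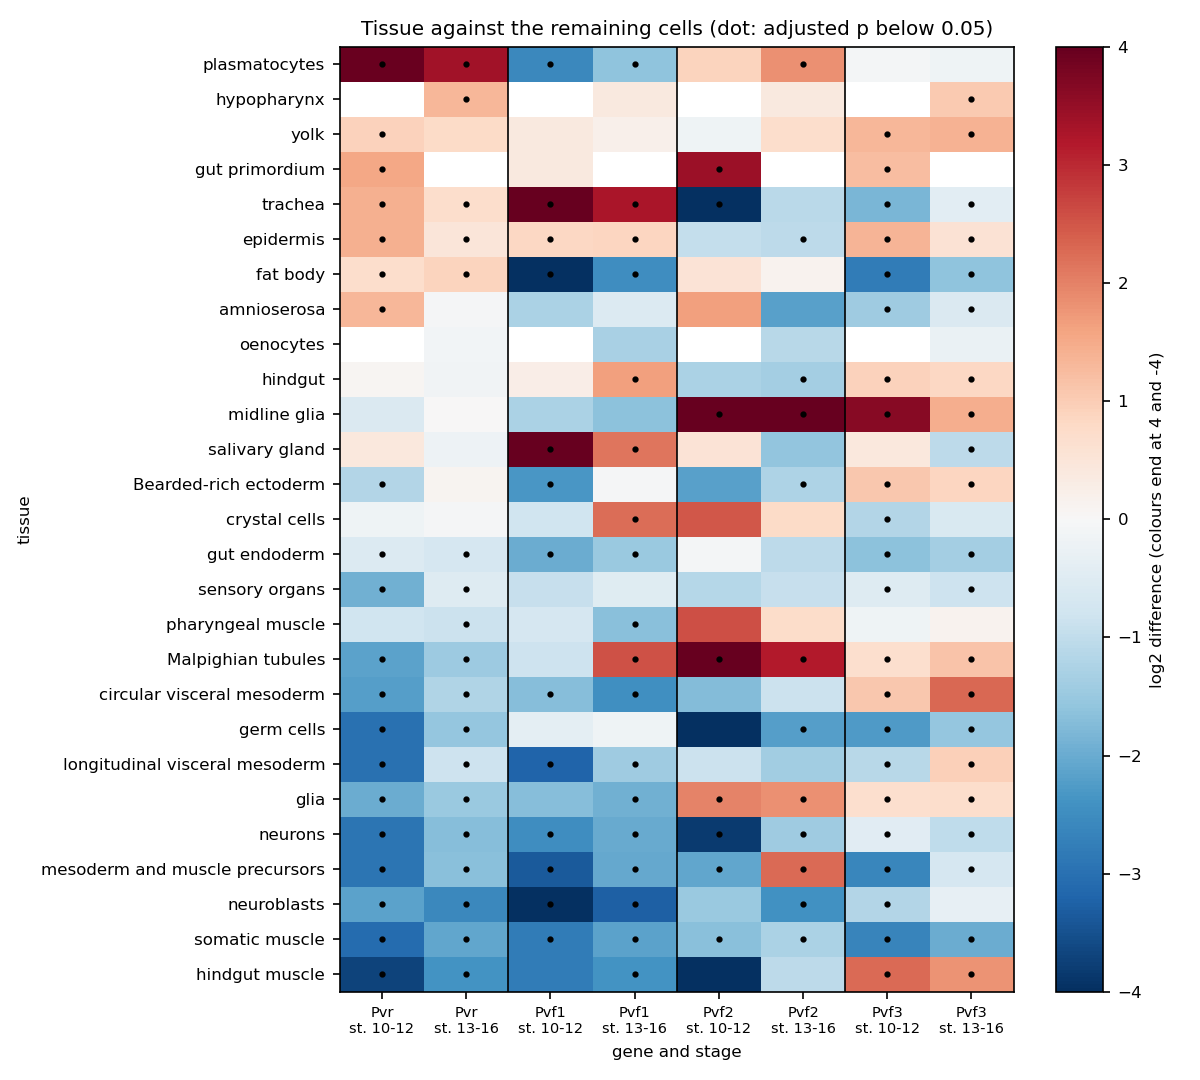
Log2 difference between each tissue (rows) and the remaining cells for each gene and stage (columns), red higher and blue lower, with a dot where the adjusted p was below 0.05. White cells were not tested, colours end at 4 and -4, and the darkest blue cells include tissues with 0 UMIs, whose fitted values are no fold. Pvr is dark red in plasmatocytes alone, and the ligand columns are red in other rows.

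Ligand sources and receptor-bearing cells were then set side by side, tissue by tissue. Of the 3 tissues with higher Pvf1 at stage 10-12, 2 also had higher Pvr (epidermis and trachea) and none had lower Pvr. At stage 13-16, 2 of 6 had higher Pvr, the same epidermis and trachea, and 1, the Malpighian tubules, had lower Pvr. For Pvf2, 1 of 4 tissues early (gut primordium) and 1 of 5 late (plasmatocytes) had higher Pvr, while 2 and 3 had lower Pvr. For Pvf3, 3 of 10 early (epidermis, gut primordium and yolk) and 2 of 11 late (epidermis and hypopharynx) had higher Pvr, and 5 and 5 had lower Pvr. Over all tissues, Pvr was higher in 7 of 25 and lower in 13 early, and higher in 5 of 26 and lower in 13 late. The Pvf3 counts lie near these shares, and no ligand count was tested against them. The midline glia, with high Pvf2 and Pvf3, had 14.1 and 46.1 CPM of Pvr and then 61.0 and 67.9 CPM and were not called. The visceral muscles with high Pvf3 had lower Pvr.

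**Figure D4:**
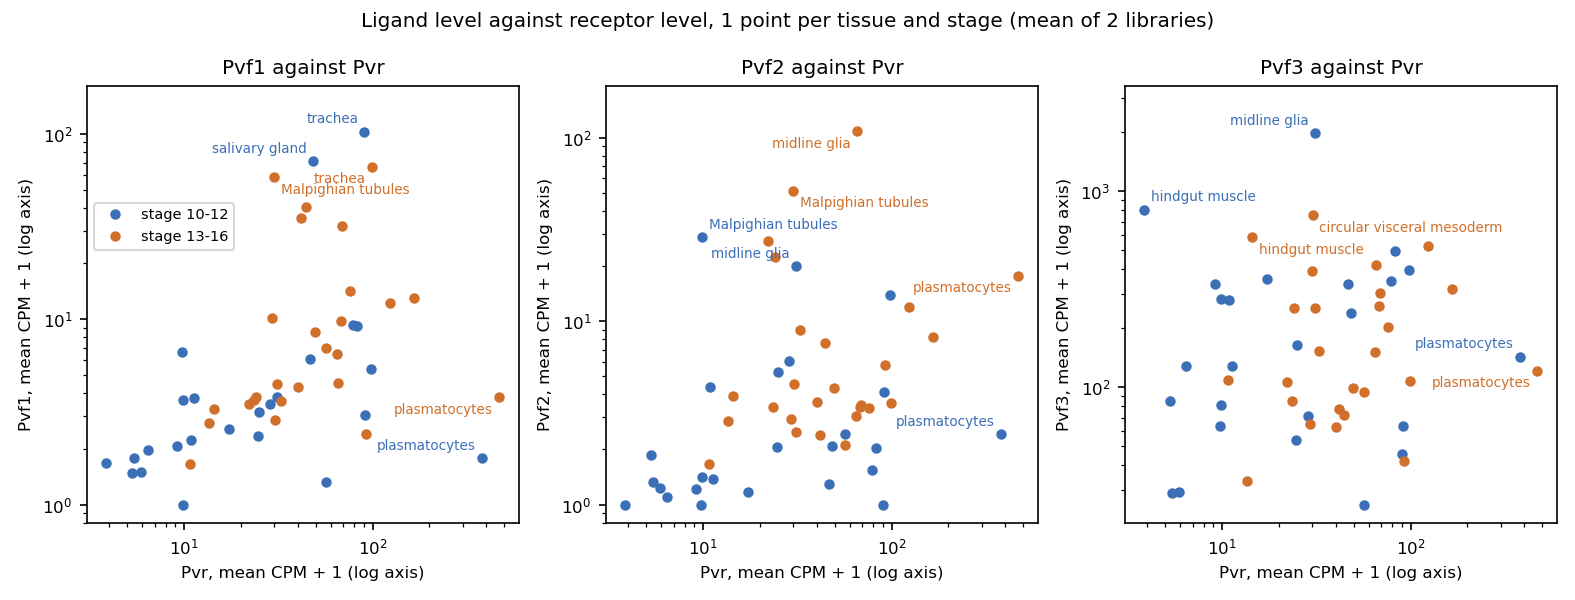
Level of each ligand (y axes, mean CPM of 2 libraries plus 1, log axis) against the level of Pvr (x axes, same scale) for each tissue at stage 10-12 (blue) and stage 13-16 (orange). Plasmatocytes lie at the far right in every panel, near the bottom for Pvf1, and the tissues highest in Pvf2 and Pvf3 lie to the left of them.

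Over 102 tissue sums of at least 20 cells, the correlation of log2(CPM + 10) was 0.31 between Pvr and Pvf1, 0.16 between Pvr and Pvf2 and 0.087 between Pvr and Pvf3. Among the ligands it was 0.30 for Pvf2 and Pvf3, 0.067 for Pvf1 and Pvf2 and -0.0036 for Pvf1 and Pvf3. The sums share libraries and depth, so these are descriptions. Among 9153 genes, those most like Pvr were Itpr (r = 0.78), Pdi (0.76), Pgant9 (0.75), Mtp (0.75) and ERp60 (0.73). Itpr encodes the calcium channel gated by inositol trisphosphate, and Pdi and ERp60 encode protein disulfide isomerases of the endoplasmic reticulum. Closest to Pvf1 were CG3502 (0.74), pio (0.72), CG33169 (0.71), haf (0.69) and CG16959 (0.69), and closest to Pvf2 CG42788 (0.61), CG30427 (0.60), CG9380 (0.58), CG13157 (0.58) and wrapper (0.53), the last a surface protein of midline glia. Closest to Pvf3 were pyd (0.69), bun (0.65), sfl (0.64), NetA (0.64) and RhoGAP19D (0.63), of which pyd encodes a junction protein and NetA a netrin.

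Levels were also compared between the stages within each of 24 tissues named at both. Over all genes and tissues, 10.9% of these tests were called higher at stage 13-16 and 5.76% lower. Pvr passed the filter in 23 tissues and rose in 6, Pvf1 in 13 and rose in 4, Pvf2 in 10 and rose in 5, and Pvf3 in 24, where it rose in 5 and fell in 1. A gene with few early counts passes the filter only through its late libraries and then has to be higher there, so these counts describe the tested tissues and do not bear on a common direction. The fall was that of Pvf3 in midline glia (-2.13, SE 0.50, adjusted p = 0.015). This fall was lost without stage 10-12 replicate 1 (-1.92) or replicate 2 (-2.36). After thinning to 1000 UMIs, none of the 11 of these results that could still be fitted passed the threshold.

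Pvr rose in longitudinal visceral mesoderm (2.64), sensory organs (2.19), Bearded-rich ectoderm (2.11), mesoderm and muscle precursors (1.92), circular visceral mesoderm (1.78) and somatic muscle (1.53). The rise in longitudinal visceral mesoderm was lost without stage 10-12 replicate 2 (1.95). In sensory organs, for example, it was 11.2 and 9.34 CPM early and 46.5 and 50.4 CPM late, and in somatic muscle 5.68 and 3.20 CPM and then 11.1 and 14.0 CPM. The Pvr level of the removed droplets moved the same way, from 27.0 and 13.8 CPM to 32.3 and 65.1 CPM, and so did that of all kept cells, from 46.7 and 30.4 CPM to 79.0 and 60.8 CPM. The part of free RNA in these rises was not tested.

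Pvf1 rose in Malpighian tubules (4.23), Bearded-rich ectoderm (3.19), hindgut (2.31) and mesoderm and muscle precursors (2.19). The rise in Malpighian tubules was 3.49 without stage 10-12 replicate 2, and that in the hindgut 4.199 without stage 10-12 replicate 1. The rise in Bearded-rich ectoderm was lost without stage 10-12 replicate 1 (1.56), and that in the mesoderm without 3 of the 4 libraries. Pvf2 rose in mesoderm and muscle precursors (6.49, SE 0.40, from 4 and 1 UMIs early), plasmatocytes (3.43), neurons (4.58), somatic muscle (2.52) and epidermis (2.30), and the last 3 were lost whichever of the 4 libraries was left out. Pvf3 rose in longitudinal visceral mesoderm (1.72), mesoderm and muscle precursors (1.75), trachea (1.42), circular visceral mesoderm (1.13) and fat body (0.90), and each of these rises but that in the mesoderm was lost without at least 1 library. Over all kept cells, where 18.1% of genes were called, Pvf2 was higher at stage 13-16 by 2.28 (SE 0.38, adjusted p = 0.029). Pvr (0.74, adjusted p = 0.11), Pvf1 (0.77, adjusted p = 0.15) and Pvf3 (-0.18, adjusted p = 0.70) were not called.

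The tissue difference itself was tested between the stages, which removes shifts that multiply the level alike in all cells of a library. Free RNA adds to the level instead, so its part is not removed and was not tested. Over all genes and tissues 5.79% of these tests were called. For Pvr 4 of 24 tissues had a higher and 3 a lower difference late, for Pvf1 1 and 2, for Pvf2 1 and 1, and for Pvf3 6 and 2. The difference of Pvr in plasmatocytes was not among them, and its values at the 2 stages stand above. The difference of Pvf1 in the trachea was lower late by 1.92 on the log2 scale (-1.92, SE 0.26), and that of Pvf2 in mesoderm and muscle precursors was higher by 4.35.

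Genes of Pvr signaling were read in plasmatocytes from a list of 31 genes, all of which were tested. In these cells 18.6% of all genes were called higher and 20.3% lower at stage 10-12, and 17.9% higher and 29.4% lower at stage 13-16. Of the list, 18 were higher and 1 lower early, and 15 higher and none lower late. The median log2 difference was 0.62 over the list and -0.25 over all 10785 genes early, and 0.42 and -0.40 late. At both stages 14 were higher and none lower, where 14.5% and 17.1% of all genes were. The count higher at both stages was 8 to 15 when 1 library was left out and 6 after thinning.

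The Rac branch, which acts on the actin cytoskeleton, had 5 of 7 genes higher at both stages. They were the exchange factor Vav (2.09 and 1.79), the GTPases Rac2 (2.01 and 1.63) and Rac1 (1.41 and 1.17), and the engulfment genes Ced-12 (1.46 and 1.75) and mbc (1.14 and 1.75). In the JNK branch the Fos and Jun subunits kay (2.84 and 1.49) and Jra (1.72 and 1.46) were higher, and so was the phosphatase puc (0.90 and 0.42), whose late call was marginal (adjusted p = 0.048), with a level of 74.0 CPM against 81.9 CPM in the remaining cells of stage 13-16 replicate 2. The level of kay was 100 and 114 CPM and then 81.6 and 68.3 CPM, against 17.2 to 32.4 CPM in the remaining cells. These levels did not overlap. Of the genes at the end of the MAP kinase cascade, the ETS factor pnt (1.97 and 2.37) and the feedback inhibitor sty (1.47 and 2.46) were higher.

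The transcript of pnt was at 508 and 670 CPM and then 518 and 542 CPM in plasmatocytes, and at 108 to 186 CPM in the remaining cells. The repressor aop changed sides, from -0.62 early (488 and 284 CPM against 732 and 640 CPM) to 0.64 late (547 and 597 CPM against 452 and 441 CPM). Of the 11 adaptors and Ras and MAP kinase genes, Shc (0.85 and 1.23), drk (1.04 and 0.85) and Ras85D (0.54 and 0.56) were higher at both stages, and of the 3 PI3 kinase genes only Pi3K92E, a catalytic subunit (0.83 and 1.12). Most of these genes also serve other receptors. For Ras85D the plasmatocyte level in stage 13-16 replicate 2 was 202 CPM, close to the 197 CPM of the remaining cells.

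**Figure D5:**
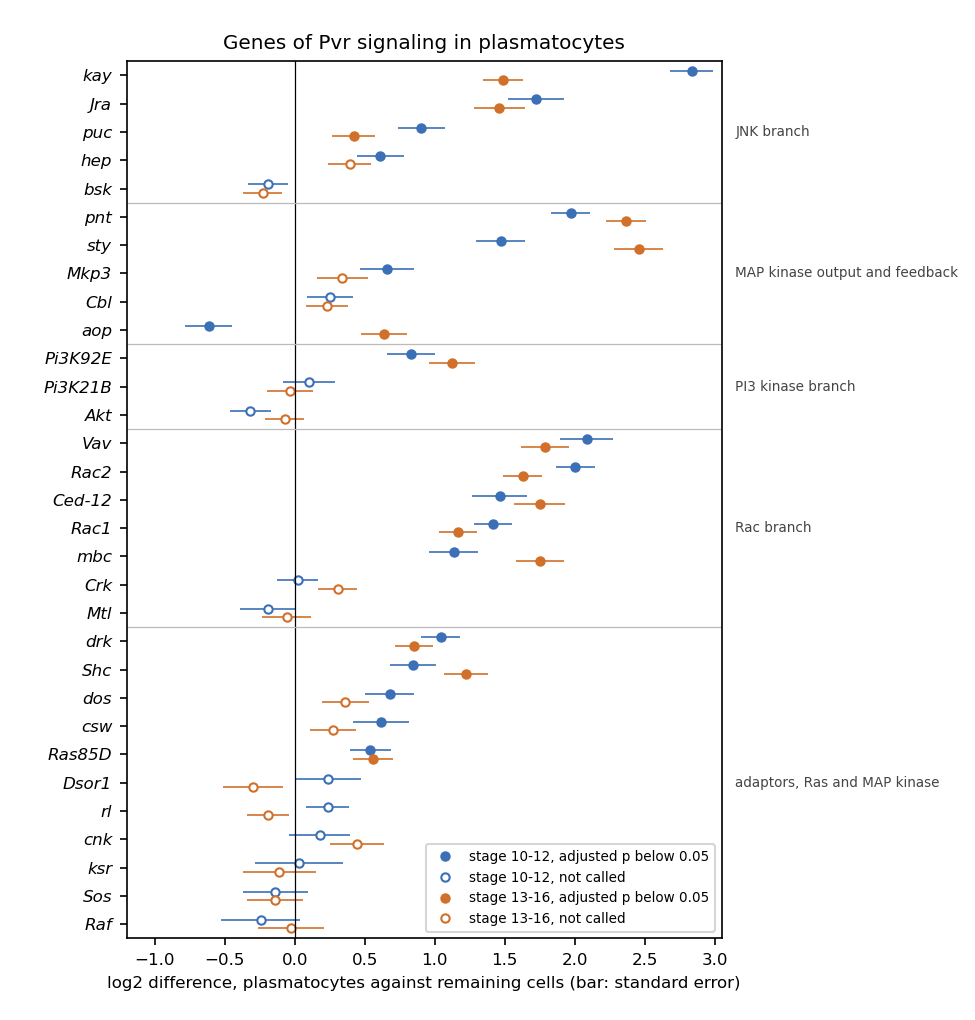
Log2 difference between plasmatocytes and the remaining cells (x axis) with its standard error for the 31 genes of Pvr signaling (rows, grouped by branch), at stage 10-12 (blue) and stage 13-16 (orange). Filled points had an adjusted p below 0.05, and the largest value is that of kay at stage 10-12, 2.84.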

How the data were processed

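The authors deposited, for each of the 4 libraries, a matrix of UMI counts per gene and barcode made with Cell Ranger 6.1.2, with counts as the unit and no normalization. From these, barcodes with over 25% mitochondrial UMIs, clusters of a library with fewer than 50 marker genes (likely empty) and likely doublets (the barcodes most like simulated doublets, a share of 0.008 for every 1000 cells) were left out. Each stage was clustered (2000 variable genes without the members, 59 and 68 principal components for the 2 stages, Harmony, 20 neighbors, Louvain resolution 2, igraph 0.11.9, Python 3.11.15), and clusters were named from fixed markers, without Pvf3, by a score of at least 1.3. The score and the naming limits were set after clusters were seen, and names may differ from the study's. Counts were summed per library and tissue (at least 10 cells in each library) and tested with edgeR 4.0.16 in R 4.3.3 (TMM, quasi-likelihood, Benjamini-Hochberg over all genes and tissues). The tests were checked on simulated data. The members and lists were chosen with earlier results of these data known. Genes named besides the members were those of the pathway list called in plasmatocytes at both stages, and the 5 most correlated genes per member. The gene aop, clusters within a tissue or without a name, and their leading genes were named after their values were seen. Alternatives were DESeq2 1.42.0, no filter on low counts, another resolution, clustering by library, no doublet removal, thinning to 1000 UMIs, a rest of named tissues only, a replicate block and leaving out each library. Leaving out the plasmatocyte cluster of 1 library, the weakly scored plasmatocyte clusters or the epidermal cluster led by a noncoding RNA was added after seeing the data.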

Additional observations from a re-analysis of the deposited data

Results flagged for a closer look

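The difference between a tissue and the remaining cells was itself larger or smaller at stage 13-16 than at stage 10-12 for 20 pairs of gene and tissue, by a test of that difference (edgeR, adjusted p under 0.05). Values are the late minus the early log2 difference. For Pvr they were 2.13 in longitudinal visceral mesoderm, 1.399 in sensory organs, 1.29 in Bearded-rich ectoderm and 1.00 in somatic muscle, and -1.38 in amnioserosa, -0.93 in epidermis and -0.71 in trachea. The value in trachea was lost whichever library was left out, and that in somatic muscle without any but stage 13-16 replicate 1.

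For Pvf1 they were 3.37 in Malpighian tubules, -1.92 in salivary gland and -1.92 in trachea. Without stage 10-12 replicate 2 the value in Malpighian tubules was 2.61, and that in salivary gland was lost in 3 of 4 leave-one-out fits and was -3.83 without stage 13-16 replicate 2. For Pvf2 they were 4.35 in mesoderm and muscle precursors (5.11 without stage 10-12 replicate 1) and -1.98 in Malpighian tubules. The leading genes of the mesoderm cells differed between the 2 stages at the clustering used and were partly shared at a coarser one. The value in Malpighian tubules was lost without stage 10-12 replicate 2 (-1.83) or stage 13-16 replicate 2 (-1.50).

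For Pvf3 they were 2.07 in longitudinal visceral mesoderm, 1.96 in mesoderm and muscle precursors, 1.43 in trachea, 1.23 in circular visceral mesoderm, 1.17 in fat body and 0.83 in neuroblasts, and -2.19 in midline glia and -1.48 in salivary gland. The value in midline glia was lost without stage 10-12 replicate 1 (-1.64), that in fat body without stage 10-12 replicate 2 (1.07), that in salivary gland without stage 10-12 replicate 1 (-0.59) or stage 13-16 replicate 2 (-0.96), and that in neuroblasts without any but stage 13-16 replicate 1. Of the 20, 8 kept their call in all 4 leave-one-out fits, and 5 kept it after thinning.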

How the results depend on the processing

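After thinning to 1000 UMIs, Pvr was higher in 4 tissues early, Pvf1 in 3 late, Pvf2 in 0 early and Pvf3 in 4 early, 6 pathway genes were higher in plasmatocytes at both stages, and the tissues that differed between stages numbered 0 for all 4 genes (main counts 6 for Pvr, 4 for Pvf1, 5 for Pvf2 and 6 for Pvf3). With each library clustered alone, Pvf2 was higher in 1 tissue early and Pvf3 in 4 early and 5 late, and 0 tissues differed between stages for Pvf1 and 2 for Pvf3. Without doublet removal 12 tissues differed for Pvr and 10 for Pvf2, without the filter on low counts 13 and 11, and for Pvf1 2 with DESeq2 and 2 at resolution 1. The cause of these changes was not tested.

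Leaving out 1 library at a time gave 4 to 7 tissues with higher Pvr early and 3 to 6 late, 2 to 3 and 4 to 6 for Pvf1, 1 to 4 and 4 to 6 for Pvf2, and 5 to 11 and 7 to 10 for Pvf3. Tissues that differed between stages numbered 6 to 12 for Pvr, 3 to 5 for Pvf1, 2 to 5 for Pvf2 and 2 to 9 for Pvf3, and pathway genes higher at both stages 8 to 15. The difference of Pvr in plasmatocytes was 3.68 to 3.95 early and 3.29 to 3.63 late. Over all kept cells the stage difference was 0.41 to 1.03 for Pvr, 0.42 to 1.05 for Pvf1, 2.18 to 2.37 for Pvf2 and -0.65 to 0.18 for Pvf3. Calls kept in all 4 fits were 76 of 132 of tissues against the remaining cells and 10 of 21 between stages within a tissue. DESeq2 kept 103 of the 132.

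With the replicate block, Pvf2 over all kept cells was 2.27 (adjusted p = 0.080), 2 of 21 calls between stages were lost, and no other call changed. Replicate numbers mark separate collections, and replicate 1 deviated from its stage mean with r = -0.29 between the stages over 12037 genes, so they were not taken as pairs.

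Signs turned in few results. Pvf3 over all cells was 0.18 without stage 13-16 replicate 2. In plasmatocytes Pvf3, which was not called, was 0.056 early against named tissues only, and late 0.030 with each library clustered alone, 0.095 without doublet removal, 0.084 at resolution 1, 0.084 without the weakly scored clusters, 0.071 and 0.034 without stage 10-12 replicate 1 and replicate 2, and 0.12 without stage 13-16 replicate 1 (-0.28 without stage 13-16 replicate 2). Early it was -0.63 and called lower without stage 10-12 replicate 1. Pvf3 in glia was -0.032 thinned early and -0.0037 late without stage 13-16 replicate 2 (1.29 without replicate 1), in late longitudinal visceral mesoderm -0.26 with each library clustered alone, and in neurons 0.098 without doublet removal. Pvf1 in Bearded-rich ectoderm was 0.40 thinned, Pvr there -0.042 between stages at resolution 1, and Pvr in late pharyngeal muscle 0.052 at resolution 1. Without stage 10-12 replicate 1 the fitted Pvf2 values in glia (-9.54) and midline glia (-9.61) rest on 0 UMIs, and without replicate 2 they were 2.59 and 5.38. Depth limits Pvf2 most, with 5 UMIs or fewer in many tissues of a library.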

Other observations

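Some clusters without a tissue name also carried the genes. At stage 13-16 an unnamed cluster of 2212 cells had 165 and 153 CPM of Pvr and 483 and 399 CPM of Pvf3, above the epidermis of that stage in both genes. At stage 10-12 an unnamed cluster of 329 cells, whose leading genes include the head-segment regulators pb, disco-r and Dfd, had 830 and 769 CPM of Pvf3. Within the early epidermis the cluster led by a noncoding RNA (1192 cells) had 914 and 805 CPM of Pvf3, and without it the epidermal difference of Pvf3 was 1.04. All unnamed cells together had 40.5 and 22.7 CPM of Pvr early and 147 and 130 CPM late.

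Receptor and ligand RNA were also found in the same cells. Among plasmatocytes thinned to 1000 UMIs, Pvf3 was detected in 20.7% of cells with Pvr and 15.5% of the others in stage 10-12 replicate 1, in 26.3% (5 of 19 cells) and 7.33% in replicate 2, in 13.0% and 9.48% in stage 13-16 replicate 1, and in 7.78% and 14.6% in replicate 2. The order therefore differed between libraries. In the epidermis the shares were 25.5% and 24.5%, 20.6% and 19.3%, 21.9% and 14.6%, and 16.9% and 12.9% in the same order. The removed droplets had Pvf3 in 6.996% to 11.8% at that depth, and the part of free RNA in these shares was not tested.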
